A study of Mus musculus with 12 samples.

Results

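The genes described here encode the core of the basement membrane: the collagen IV chains Col4a1, Col4a2 and Col4a5, the laminin chains Lama2, Lama4, Lamb1, Lamb2 and Lamc1, the linker nidogen Nid1 and the proteoglycan perlecan, Hspg2. They were chosen by name and matched through the gene symbols of the array annotation, which held all 10 of them among 18193 genes. Where a gene had several probe sets, which are groups of short oligonucleotides that read one transcript, the one whose mean value was highest was taken.

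Liver RNA of male Balb/c mice, bought at an age of 8 weeks and killed after 6 weeks of treatment, was measured on Affymetrix mouse genome arrays, with 12 arrays in 4 groups of 3. NC mice received olive oil and a control lentivirus, and NC+CCl4 mice received the same virus and the liver toxin carbon tetrachloride (CCl4). The shLFAR1 mice received oil and a lentivirus with a short hairpin RNA against the long noncoding RNA lnc-LFAR1, and shLFAR1+CCl4 mice received that virus and CCl4. CCl4 was given as 5% in olive oil at 0.3 ml/kg by intraperitoneal injection 3 times per week, and the virus was injected into the tail vein at 2 weeks, followed by 4 further weeks of injections. Both viruses went to the whole animal, and per the methods the H1 promoter, which is not tied to a cell type, drove the hairpin. Each group of the study had 10 mice, of which 3 liver samples were put on arrays. The level of lnc-LFAR1 itself was not analysed here.

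Basement membranes are thin sheets of matrix that lie under epithelia and around vessels, nerves and muscle fibres. Laminins, each built from an alpha, a beta and a gamma chain, form a sheet on the cell surface, collagen IV chains wind around each other and form a second network, and nidogen and perlecan hold the sheets together. In the healthy liver the hepatic sinusoids lack a continuous basement membrane, and laminin and collagen IV are laid down along them when the liver scars. Stellate cells, endothelial cells and bile duct cells are known to make these proteins. In whole liver RNA, more cells of a type and more RNA per cell cannot be told apart.

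The hepatocyte markers Alb, Ttr and Apoa1 stood at percentiles 99.97 to 99.99 of all genes by level. Array means spanned 5.10 to 5.11 log2 units. On the first principal component, which held 56.3% of the variance, replicates 1 and 2 of shLFAR1+CCl4 lay at -6.80 and -9.66, whereas replicate 3 of that group lay at 39.2, within the range of the NC+CCl4 arrays from 34.8 to 48.8. Beta-actin read at its 3′ end exceeded the same transcript read at its 5′ end by 1.31 log2 units in NC+CCl4 replicate 1. In the other arrays the excess was 0.70 to 1.07. For Gapdh the excess was 0.72 in NC+CCl4 replicate 1 and -0.21 to 0.03 in the others. Such an excess is a sign of RNA quality. For the 10 genes, calls that NC+CCl4 replicate 1 or shLFAR1+CCl4 replicate 3 decide are given with and without them.

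RefSeq promoter sequences of the mouse assembly GRCm38.p6 were at hand for 8 of the 10 genes, all but Lama4 and Lamc1. Col4a1 and Col4a2 lie head to head on chromosome 8 and are read in opposite directions from 1 shared promoter. The stretch around both annotated start sites is shown on the + strand, because both genes were called in the same comparison. Capitals mark the 22 bases from the Col4a2 start at 11312805 to the Col4a1 start at 11312826. As annotated, each gene is read across the start of the other, so these bases lie in both transcripts. The bases before each start are on the transcribed side of the other gene.
Col4a1 and Col4a2, chr8:11312801-11312830: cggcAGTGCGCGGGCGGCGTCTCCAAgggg

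The 250 bases before the start of 4 further genes are shown 5′ to 3′ in the direction of the gene, 3 that rose with CCl4 and Hspg2, which was not called. Capitals mark matches on either strand to a Smad element, a GC box or a CCAAT box, and no match overlapped another.
Col4a5, chrX:141475169-141475418, + strand: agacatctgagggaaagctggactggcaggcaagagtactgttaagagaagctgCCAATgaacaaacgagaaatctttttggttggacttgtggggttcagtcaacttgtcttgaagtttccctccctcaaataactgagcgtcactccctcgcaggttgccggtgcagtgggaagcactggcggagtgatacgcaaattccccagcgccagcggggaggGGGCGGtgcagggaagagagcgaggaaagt
Nid1, chr13:13437352-13437601, + strand: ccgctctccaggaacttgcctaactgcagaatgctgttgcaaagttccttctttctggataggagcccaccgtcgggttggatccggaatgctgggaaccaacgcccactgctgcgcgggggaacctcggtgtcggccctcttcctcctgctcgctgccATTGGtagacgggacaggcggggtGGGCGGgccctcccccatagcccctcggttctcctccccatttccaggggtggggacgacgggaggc
Lama2, chr10:27616943-27617192, - strand: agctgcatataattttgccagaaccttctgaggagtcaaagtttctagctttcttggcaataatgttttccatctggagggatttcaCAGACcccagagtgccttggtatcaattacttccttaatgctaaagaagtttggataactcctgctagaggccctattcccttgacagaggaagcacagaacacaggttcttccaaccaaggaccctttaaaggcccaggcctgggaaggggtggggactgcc
Hspg2, chr4:137468553-137468802, + strand: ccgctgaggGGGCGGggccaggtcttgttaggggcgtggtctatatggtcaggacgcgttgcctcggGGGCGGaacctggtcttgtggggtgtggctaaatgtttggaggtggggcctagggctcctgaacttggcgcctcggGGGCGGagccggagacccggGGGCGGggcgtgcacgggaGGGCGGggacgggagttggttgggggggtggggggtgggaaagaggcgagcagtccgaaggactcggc

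Both strands of the same 250 bases were searched for these motifs. The Smad element, CAGAC, was found in 4 of the 8 promoters, those of Col4a2, Lama2, Lamb1 and Lamb2, against 42.2% of 32851 RefSeq promoters of this length. The GC box, GGGCGG, was found in 5 of 8 against 32.7%, with 5 matches in Hspg2. The CCAAT box, spelled as its name, was found in 5 of 8 against 33.8%. The AP-1 site, TGANTCA, had no match in these 8 windows and was present in 6.75% of all promoters. The TATA box, TATAAA, had none either, against 12.4%. These matches describe the letters only.

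The first comparison, NC+CCl4 against NC, asks how the basement membrane genes responded to CCl4 under the control virus. The collagen IV chains Col4a1, Col4a2 and Col4a5 rose, Nid1 rose 4.91-fold, and of the laminin chains Lama2, Lamb1 and Lamc1 rose, whereas Lama4, Lamb2 and Hspg2 were not called. Of the 10 genes 7 were called higher and none lower, where 7.66% of all genes were called higher and 5.41% lower. A call means an adjusted p under 0.05 in limma, with the Benjamini-Hochberg adjustment over all 18193 genes. All NC+CCl4 arrays lay above all NC arrays for 8 of the 10, against 13.8% of all genes. They all lay below for none of the 10, against 15.8% of all genes. The median log2 change of the 10 genes was 1.04, and that of all genes was -0.05. The genes were chosen with results of these arrays known, so these counts describe them.

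**Figure D1:**
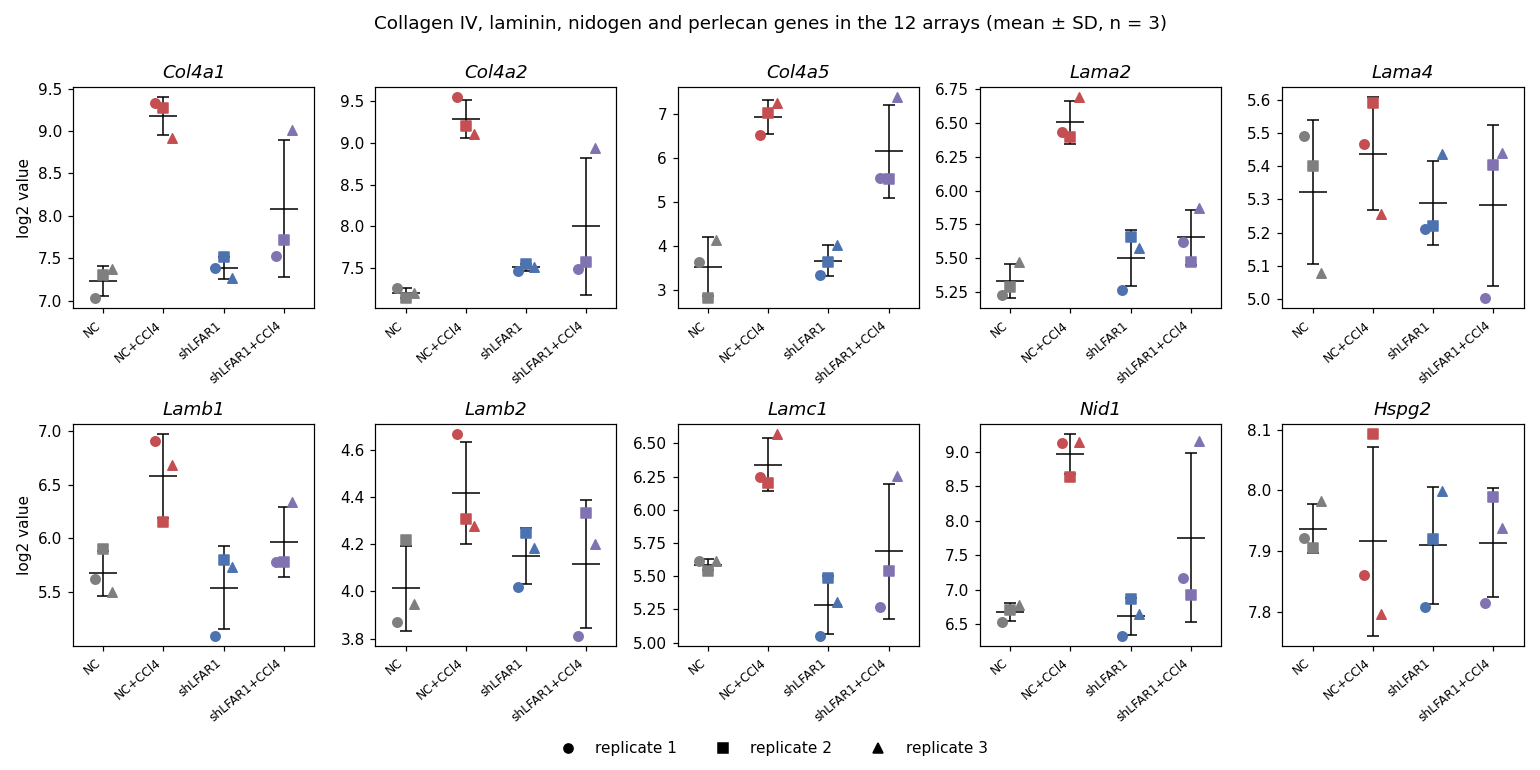
log2 value (y axis) of each of the 10 genes in the 12 arrays, by group (x axis). Each point is 1 array, its shape giving the replicate, and horizontal lines with bars show mean ± SD of 3 arrays, with a y axis of its own for each gene. Replicate 3 of shLFAR1+CCl4 was the highest of its group for 8 of the 10 genes.

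Col4a1 and Col4a2, the pair of chains found in basement membranes throughout the body, changed alike. Col4a1 read 7.02, 7.30 and 7.37 log2 units in NC replicates 1, 2 and 3, against 9.33, 9.27 and 8.92 in NC+CCl4. In shLFAR1 it read 7.38, 7.52 and 7.26, and in shLFAR1+CCl4 7.52, 7.71 and 9.01. The NC+CCl4 arrays thus lay above all oil arrays, and of the shLFAR1+CCl4 arrays replicate 3 alone lay among them. Under the control virus Col4a1 was 3.85-fold higher with CCl4 (1.94 ± 0.30 log2 units, SE, n = 3 arrays per group, limma adjusted p = 0.00206).

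Col4a2 read 7.26, 7.13 and 7.20 in NC and 9.55, 9.20 and 9.11 in NC+CCl4. It read 7.46, 7.54 and 7.51 in shLFAR1 and 7.49, 7.57 and 8.95 in shLFAR1+CCl4. Replicates 1 and 2 of shLFAR1+CCl4 thus read at the level of the shLFAR1 arrays, and replicate 3 lay below the lowest NC+CCl4 array. The CCl4 change under the control virus was 4.26-fold (2.09 ± 0.29, adjusted p = 0.0014).

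Col4a5 encodes a collagen IV chain best known from the kidney, where its loss causes Alport syndrome, and it had the highest change of the 10. Its values were 3.63, 2.81 and 4.13 in NC, 6.51, 7.02 and 7.26 in NC+CCl4, and 3.34, 3.63 and 4.03 in shLFAR1. In shLFAR1+CCl4 they were 5.55, 5.53 and 7.38, so that every array with CCl4 lay above every oil array under either virus. With the control virus it was 10.6-fold higher with CCl4 (3.40 ± 0.45, adjusted p = 0.00103). Its oil values are low on this scale and may be background, in which case the fold is understated.

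Among the laminin alpha chains, Lama2, known from muscle and nerve, and Lama4, known from the vessel wall, behaved differently. Lama2 read 5.23, 5.28 and 5.47 in NC, 6.43, 6.39 and 6.69 in NC+CCl4, 5.26, 5.66 and 5.57 in shLFAR1, and 5.62, 5.47 and 5.87 in shLFAR1+CCl4. All 3 NC+CCl4 arrays stood clear of the other 9, replicate 3 of shLFAR1+CCl4 included. Lama2 was 2.26-fold higher in NC+CCl4 than in NC (1.18 ± 0.15, adjusted p = 0.000755). Lama4 lay between 5.00 and 5.59 in all 12 arrays, with every group overlapping every other, and its log2 change was 0.11 ± 0.16 (adjusted p = 0.689, 95% confidence interval -0.23 to 0.46).

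Lamb1 and Lamc1, the beta and gamma chain shared by most laminins, rose less. Lamb1 read 5.62, 5.90 and 5.50 in NC, 6.90, 6.15 and 6.68 in NC+CCl4, 5.10, 5.80 and 5.73 in shLFAR1, and 5.78, 5.78 and 6.34 in shLFAR1+CCl4. Lamc1 read 5.61, 5.54 and 5.61 in NC, 6.25, 6.20 and 6.57 in NC+CCl4, 5.05, 5.49 and 5.30 in shLFAR1, and 5.27, 5.54 and 6.26 in shLFAR1+CCl4. For both genes the NC+CCl4 arrays lay above every oil array, and in shLFAR1+CCl4 only replicate 3 did. Lamb1 was 1.87-fold higher in NC+CCl4 than in NC (0.90 ± 0.24, adjusted p = 0.026) and Lamc1 1.68-fold higher (0.75 ± 0.21, adjusted p = 0.0367).

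These last calls were the least stable. Lamb1 was not called without NC replicate 1, NC replicate 3, NC+CCl4 replicate 1 or NC+CCl4 replicate 3 (adjusted p = 0.0828, 0.0849, 0.0833 and 0.0781). Lamc1 was not called without any NC replicate (0.0923, 0.109 and 0.0805 without replicates 1, 2 and 3), without NC+CCl4 replicate 1 or 3 (0.0587 and 0.125) or without shLFAR1 replicate 3 (0.0546). The calls of Col4a1, Col4a2, Col4a5, Lama2 and Nid1 held in all 12 fits that left out 1 array. Lamb2, the beta chain of kidney and synapse, was 1.32-fold higher with groups that did not overlap, 3.87 to 4.22 in NC and 4.28 to 4.67 in NC+CCl4, but was not called (0.40 ± 0.16, adjusted p = 0.116).

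Nid1, which links laminin to collagen IV, read 6.53, 6.71 and 6.78 in NC, 9.13, 8.64 and 9.14 in NC+CCl4, 6.33, 6.87 and 6.64 in shLFAR1, and 7.16, 6.93 and 9.16 in shLFAR1+CCl4. It was the gene with the widest gap inside shLFAR1+CCl4, where replicate 3 exceeded the mean of the other arrays by 2.12 log2 units and even the highest NC+CCl4 array. Its change with CCl4 under the control virus was 2.30 ± 0.43 log2 units (adjusted p = 0.00529). Hspg2 lay between 7.80 and 8.09 in all arrays with a change of -0.02 ± 0.11 (adjusted p = 0.928, 95% confidence interval -0.25 to 0.21).

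**Figure D2:**
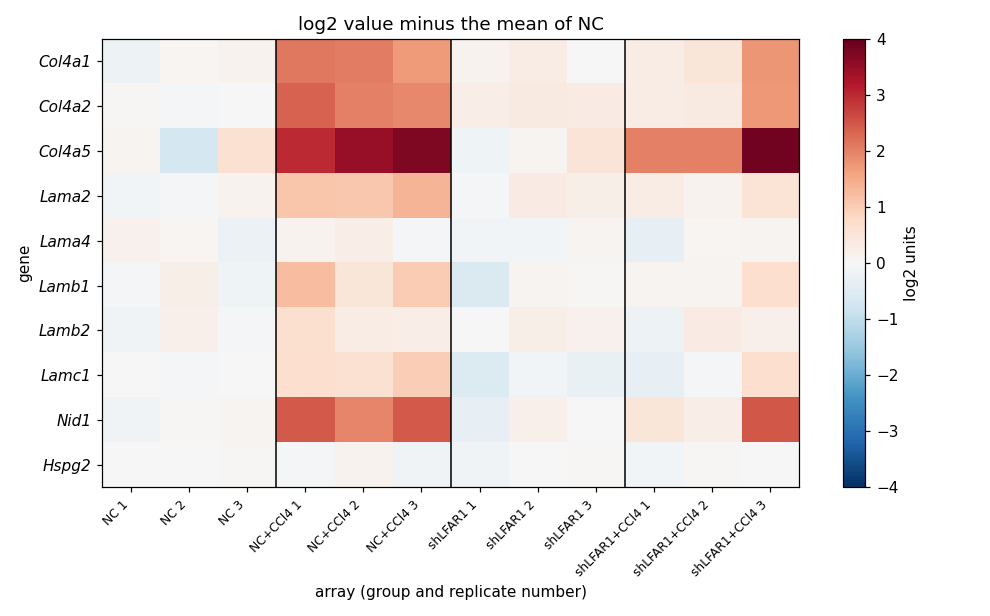
log2 value minus the NC mean (colour, log2 units) of the 10 genes (rows) in the 12 arrays (columns, by group and replicate). Averaged over the 10 genes, the NC+CCl4 arrays stood 1.24 to 1.36 above NC, and shLFAR1+CCl4 replicates 1, 2 and 3 stood at 0.25, 0.38 and 1.20.

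The probe sets of one gene did not always agree. The 10 genes have 20 probe sets, and in a fit over all 45037 probe sets 11 of the 20 were called higher in NC+CCl4 against NC and none lower, where 4.98% of all probe sets were called higher and 3.52% lower. The other Col4a1 probe set rose by 1.94 ± 0.24 log2 units, the same as the one used. A second Col4a5 probe set rose by 1.14 ± 0.19 (adjusted p = 0.00379), less than the 3.40 of the one used. For Lamb1 the other 3 changed by 1.31, 0.35 and -0.04, of which the first was called, and for Lamc1 the other one changed by -0.20 ± 0.13 (adjusted p = 0.378). The other probe sets of Nid1 changed by 1.22 ± 0.30 (adjusted p = 0.0261) and -0.01 ± 0.10, against the 2.30 of the one used. A second Hspg2 probe set changed by 0.59 ± 0.19 (adjusted p = 0.0669), so the absence of a call for Hspg2 holds for both probe sets but the near-zero change does not. With the mean of all probe sets, Nid1 changed by 1.17 (adjusted p = 0.0116) and Col4a5 by 2.27 (adjusted p = 0.00108), Hspg2 by 0.29 and Lamc1 by 0.27, of which Hspg2 and Lamc1 were not called.

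**Figure D3:**
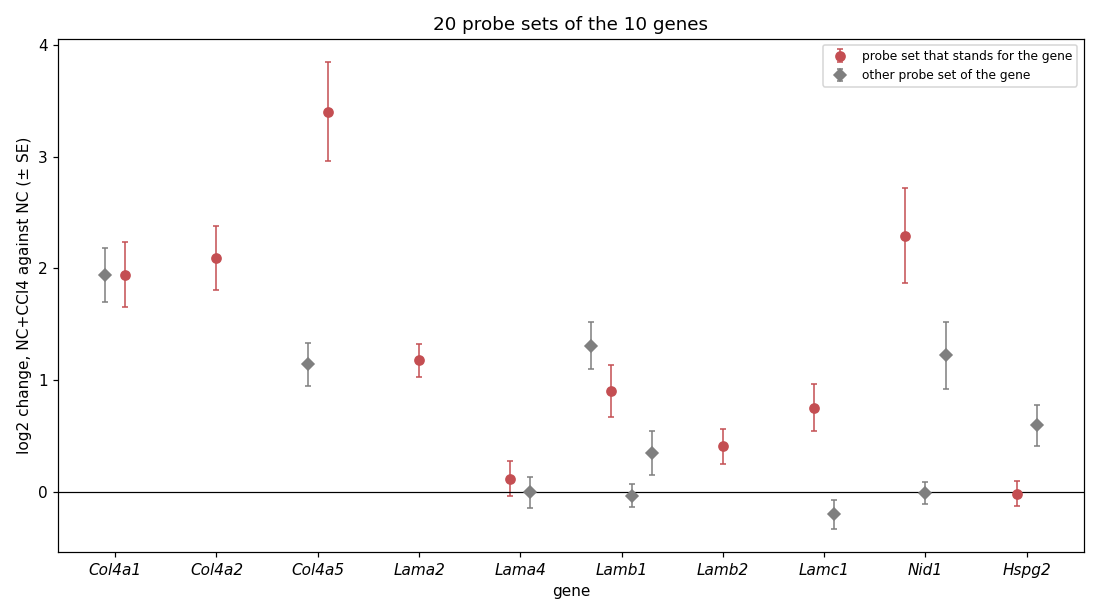
log2 change ± SE in NC+CCl4 against NC (y axis) of each probe set of the 10 genes (x axis). Circles are the probe sets that stand for the gene and diamonds the others. The probe sets of Col4a1 coincide at 1.94, whereas those of Col4a5, Lamb1, Lamc1, Nid1 and Hspg2 spread.

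Livers given CCl4 under the knockdown virus were then set against those given CCl4 under the control virus, shLFAR1+CCl4 against NC+CCl4, to see what the hairpin changed during injury. Lama2 was 1.81-fold lower (-0.85 ± 0.15 log2 units, adjusted p = 0.0353), and it was the only one of the 10 genes called. Over all genes 0.115% were called lower and 0.176% higher. All 10 log2 changes were below 0, with a median of -0.71 where that of all genes was 0.01. All shLFAR1+CCl4 arrays lay below all NC+CCl4 arrays for 2, Lama2 and Col4a2, against 5.11% of all genes. They all lay above for none of the 10, against 7.2% of all genes. At an unadjusted p under 0.05 there were 6, Col4a1, Col4a2, Lama2, Lamb1, Lamc1 and Nid1, against 14.2% of all genes in either direction.

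Col4a2 had a log2 change of -1.29 ± 0.29 (adjusted p = 0.0855), Nid1 of -1.22 ± 0.43 (adjusted p = 0.222) and Col4a1 of -1.09 ± 0.30 (adjusted p = 0.117). These were larger in size than the change of Lama2, and the spread inside shLFAR1+CCl4 was wide for them, with an SD of 0.81 for Col4a1, 0.82 for Col4a2 and 1.23 for Nid1 but 0.20 for Lama2. The median SD of the 10 genes was 0.42 in shLFAR1+CCl4, against 0.22 in NC+CCl4, 0.15 in NC and 0.17 in shLFAR1. Over all genes the median SD was 0.14 in shLFAR1+CCl4 and 0.17 in NC+CCl4. Col4a5 (-0.77 ± 0.45, adjusted p = 0.489), Lamb1 (-0.61 ± 0.24, adjusted p = 0.267) and Lamc1 (-0.65 ± 0.21, adjusted p = 0.187) were not called, and Lama4, Lamb2 and Hspg2 lay between -0.30 and 0.00.

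Replicate 3 of shLFAR1+CCl4 set most of that spread. It was at or above the lowest NC+CCl4 array for 7 of the 10 genes, replicate 1 for 1 and replicate 2 for 3. Without it 6 genes were called lower, where 4.90% of all genes were, which were Col4a1 (-1.55), Col4a2 (-1.76), Nid1 (-1.92), Col4a5 (-1.39) and Lamc1 (-0.94), and Lama2 (-0.96). Replicate 3 of shLFAR1+CCl4 was the highest of its group for 8 of the 10 genes. Lower values and added calls without it, here and in the later comparisons, therefore follow in part from leaving it out. Lama2 itself kept its call without that array, without NC+CCl4 replicate 2 and without shLFAR1 replicate 1, and lost it in each of the other 9 fits that left out 1 array, at an adjusted p from 0.0549 to 0.177. In a fit of these 2 groups alone its adjusted p was 0.378. A second Col4a1 probe set was called in the fit over all probe sets, with a log2 change of -1.36 ± 0.24 (adjusted p = 0.0489). In that fit 0.0666% of all probe sets were called lower. The other Lamc1 probe set went the opposite way from the one used, at 0.17 ± 0.13 (adjusted p = 0.681) against -0.65. The other Lama4 probe set was at 0.02, so the shared direction of the 10 genes holds for the probe sets used.

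Same-numbered arrays of NC+CCl4 and shLFAR1+CCl4 had weakly correlated deviations from their group means over all genes (0.13, 0.23 and 0.19). The labels give no such pairing, so results that use it rest on the arrays it was taken from. Within these pairs the knockdown array was lower for 10 of 10 genes in pair 1, 9 in pair 2 and 5 in pair 3. Lower in every pair were Col4a2, Lama2, Lamb1 and Lamc1. These counts were not set against all genes, and some differences were near 0, such as -0.05 for Hspg2 in pair 1. Pair 1 holds NC+CCl4 replicate 1, the array with the largest actin and Gapdh excess. With the number as a block in these groups only, an alternative added after the results were seen, 4 genes were called lower, Col4a2 (adjusted p = 0.021), Lama2, Lamc1 (0.0345) and Nid1 (0.0472), where 2.51% of all genes were. With the number as a block in all groups Lama2 alone was called (adjusted p = 0.0272).

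**Figure D4:**
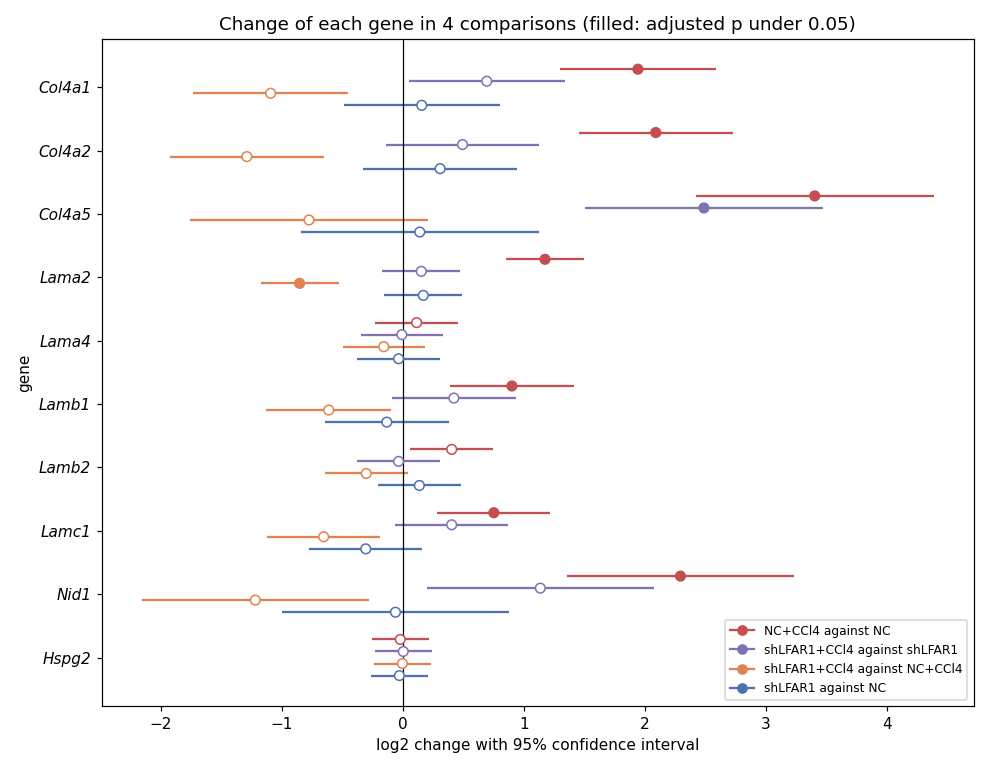
log2 change (x axis) with its 95% confidence interval for each gene (y axis) in 4 comparisons (colours), filled where the adjusted p was under 0.05. Called were 7 genes in NC+CCl4 against NC, Col4a5 in shLFAR1+CCl4 against shLFAR1, Lama2 in shLFAR1+CCl4 against NC+CCl4, and none in shLFAR1 against NC.

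The third comparison, shLFAR1+CCl4 against shLFAR1, gives the CCl4 response under the knockdown virus. Col4a5 was 5.61-fold higher (2.49 ± 0.45, adjusted p = 0.0332) and the only one of the 10 called, where 0.324% of all genes were called higher and 0.0824% lower. Its call was lost without NC replicate 1 (adjusted p = 0.0597) or without shLFAR1 replicate 1, 2 or 3 (0.197, 0.117 and 0.0926), while its arrays did not overlap. Col4a1 (0.69 ± 0.30, adjusted p = 0.421) and Nid1 (1.14 ± 0.43, adjusted p = 0.353) did not overlap either. Thus 3 of the 10 genes had separate groups with CCl4 higher, against 8.41% of all genes. None had separate groups with CCl4 lower, against 11.7% of all genes. Without shLFAR1+CCl4 replicate 3 the changes were smaller, 0.23 for Col4a1, 0.02 for Col4a2, 0.43 for Nid1 and 1.88 for Col4a5, and Col4a5 was still called (adjusted p = 0.0292). In the fit over all probe sets the second Col4a5 probe set rose by 0.92 ± 0.19 and was not called (adjusted p = 0.0865). The call of Col4a5 and its 5.61-fold size therefore hold for the probe set used. Lama2 changed by 0.15 ± 0.15 (adjusted p = 0.785), and the median over the 10 was 0.41 against -0.03 over all genes.

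Set side by side, the CCl4 changes under the control and the knockdown virus were 1.94 and 0.69 for Col4a1, 2.09 and 0.49 for Col4a2, 3.40 and 2.49 for Col4a5, 1.18 and 0.15 for Lama2, 0.90 and 0.42 for Lamb1, 0.75 and 0.40 for Lamc1, and 2.30 and 1.14 for Nid1. The interaction, that is the second minus the first, was tested directly. It was -1.60 ± 0.41 for Col4a2 (adjusted p = 0.306), -1.25 ± 0.42 for Col4a1 (adjusted p = 0.382) and -1.02 ± 0.21 for Lama2 (adjusted p = 0.17). For Nid1 it was -1.16 ± 0.61 (adjusted p = 0.576), for Lamb1 -0.48 ± 0.34 and for Lamc1 -0.35 ± 0.30 (adjusted p = 0.694 and 0.766). No gene of the 10 was called in limma, where 0.022% of all genes were called higher and 0% lower. At an unadjusted p under 0.05 there were 3, against 9.51% of all genes. With the replicate number as a block in the CCl4 groups only, added after the results were seen, Lama2 was called (adjusted p = 0.0326). In that fit 0.368% of all genes were called lower. Without shLFAR1+CCl4 replicate 3 the interaction was called for 4, Col4a1 (-1.71), Col4a2 (-2.07), Lama2 (-1.13) and Nid1 (-1.86), where 2.15% of all genes were called lower. For Col4a5 it was -0.92 ± 0.64 (adjusted p = 0.694).

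The fourth comparison, shLFAR1 against NC, asks what the knockdown virus did in livers without CCl4. Log2 changes of the 10 genes were between -0.31 and 0.31. No gene was called in limma, none had an unadjusted p under 0.05, against 2.77% of all genes, and none passed the methods' t-test at a 1.6-fold change. Over all genes 0% were called. The arrays did not overlap for Col4a2, which was higher (0.31 ± 0.29, 95% confidence interval -0.32 to 0.94), and for Lamc1, which was lower (-0.31 ± 0.21, 95% confidence interval -0.77 to 0.16), against 6.01% and 4.76% of all genes.

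Other genes of the basement membrane moved less as a group in NC+CCl4 against NC. Of 23 measured further components 3 rose and 1 fell, with a median log2 change of 0.08. These components and the genes above were sorted into separate lists with earlier results of these data known. The smaller change therefore describes the lists as drawn up and cannot show that the remaining components respond less. Over all genes 7.66% were called higher and 5.41% lower. The collagen-binding glycoprotein Sparc rose 4.89-fold, its relative Smoc2 rose 4.60-fold and Nid2, the second nidogen, rose 1.88-fold. The other collagen IV chains, Col4a3, Col4a4 and Col4a6, were not called, with log2 changes of -0.32 ± 0.12, 0.15 ± 0.13 and 0.08 ± 0.10. Lama3, a laminin alpha chain of epithelia, fell 2.38-fold, a call lost without NC replicate 1, NC replicate 2 or NC+CCl4 replicate 3 (adjusted p up to 0.0933). Of 14 receptors 4 rose and 1 fell. The laminin-binding integrin subunit Itga6 rose by 1.13 ± 0.33 log2 units, the heparan sulfate proteoglycan Sdc1 by 0.87 ± 0.22, and its relative Sdc4 fell by 1.09 log2 units. The others that rose were Itga9 (0.86) and Dag1, the laminin receptor dystroglycan (0.59). Itga6 lost its call in 9 of the 12 fits that left out 1 array and Sdc1 in 4.

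Of 11 genes for the folding, modification and crosslinking of collagen 4 rose and none fell, again beside 7.66% and 5.41% of all genes. The collagen chaperone Serpinh1 rose by 1.77 ± 0.24 log2 units, the lysyl hydroxylase Plod2 by 0.85 ± 0.22 and Pxdn, the peroxidase that crosslinks collagen IV, by 0.60 ± 0.17, of which Plod2 and Pxdn lost their calls in 5 and 7 of the 12 fits that left out 1 array. The lysyl oxidase Lox rose by 0.52 log2 units and was not called without NC replicate 2 (adjusted p = 0.061). Of 16 genes for breakdown of the basement membrane and its inhibition 8 rose and none fell, with Mmp12, Mmp2, a collagen IV-degrading protease, and the protease inhibitor Timp2 at 22.1-fold, 9.47-fold and 3.51-fold. In shLFAR1+CCl4 against NC+CCl4 2 genes of these lists were called, where 0.176% of all genes were called higher and 0.115% lower. Sdc4 was 2.16-fold higher (adjusted p = 0.0212) and lost its call without shLFAR1+CCl4 replicate 1 or 2. Timp3, an inhibitor held in the matrix, was 1.97-fold lower (adjusted p = 0.0239) and lost its call without shLFAR1 replicate 1 or 2 or shLFAR1+CCl4 replicate 1 or 2. In shLFAR1+CCl4 against shLFAR1 only Mmp2 was called, 3.69-fold higher (adjusted p = 0.0312), not without any of the NC or shLFAR1 replicates. Over all genes 0.324% were called higher in that comparison.

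Most stellate cell and macrophage markers rose with CCl4, whereas few markers of endothelium and none of bile duct cells were called. Over all genes 7.66% were called higher. The mean levels of vascular endothelium and bile duct markers were also higher in every NC+CCl4 array than in every NC array. Of 9 stellate cell markers 5 rose in NC+CCl4 against NC, Pdgfrb (5.22-fold), Lrat, Acta2, Hand2 and Lhx2, and the mean log2 value of all 9 was 6.53 to 6.56 in NC, 7.40 to 7.53 in NC+CCl4 and 6.30 to 6.70 in shLFAR1. In shLFAR1+CCl4 it was 6.81, 6.66 and 7.35 in replicates 1, 2 and 3, so replicate 3 was the highest for these markers. Replicate 3 was also the highest for macrophage markers and for markers of vascular endothelium (5.66, 5.72 and 5.81). For markers of sinusoidal endothelium and of cholangiocytes replicate 2 was the highest of that group. Of 7 markers of vascular endothelium only Cd34 rose (4.01-fold), with a mean of 5.52 to 5.59 in NC, 6.08 to 6.14 in NC+CCl4, 5.44 to 5.76 in shLFAR1 and 5.66 to 5.81 in shLFAR1+CCl4. Of 7 markers of sinusoidal endothelium only Fcgr2b rose, with means of 7.52 to 7.60, 7.56 to 7.96, 7.45 to 7.54 and 7.48 to 7.61 in the same groups. None of 5 measured cholangiocyte markers was called (means 4.70 to 4.92, 5.20 to 5.26, 4.71 to 4.94 and 4.85 to 5.28), and 5 of 7 macrophage markers rose, Lyz2, Cd68, Csf1r, Adgre1 and Cd5l (means 7.04 to 7.32, 8.43 to 9.16, 7.04 to 7.26 and 7.71 to 8.74). Of 7 hepatocyte markers Cyp2e1 fell, and their mean was 13.3 to 13.5 in every array. Log2 values have no true 0, so no marker can be called absent, and the part of these cell types in the results above was not tested.

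The genes whose profile was most like the mean profile of the 10 were Ano6, a membrane protein that moves phospholipids, Ccdc3, Myh9, a nonmuscle myosin heavy chain, Plekha2 and Marcks, a substrate of protein kinase C. The measure was the root mean square difference over the 12 arrays of log2 values minus the NC mean, taken over genes above the median level, and it was 0.11, 0.12, 0.14, 0.15 and 0.15 log2 units. Among the 10 genes themselves it was lowest for Lama2, at 0.24, and highest for Col4a5, at 1.51. Ano6 stood at 1.26, 0.06 and 0.66 above the NC mean in NC+CCl4, shLFAR1 and shLFAR1+CCl4.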

How the data were processed

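The authors summarized and normalized the array values before deposition, by a method not given in the sources used here, and deposited them as log2 values per probe set, from 1.81 to 14.5. No detection calls came with them, so a low value may be background. All 12 columns of values matched a sample. The table holds 45101 probe sets, of which 34945 outside the 64 control probe sets carried exactly 1 gene symbol. All 12 arrays entered 1 linear model on the 4 groups (limma 3.58.1 in R 4.3.3, eBayes with an intensity trend, 8 residual degrees of freedom), and all tests were two-sided. Errors are standard errors of this model, and precision is limited by the number of arrays. The labels call the replicates biological, and p measures the spread between these liver samples, pooled over groups. The script was tested on simulated data. Alternatives covered the intensity trend, the probe set rule, a filter on level, quantile normalization, a replicate block, array weights, each array left out, the compared groups alone and the methods' t-test. The methods' t-test was Student's test per gene at a 1.6-fold change and an unadjusted p under 0.05. Figures were made in Python 3.11.15. The genes, the further lists and the alternatives were chosen with earlier results of these data known. Named were all 10 genes, from each further list the 3 called genes with the largest changes, and the 5 genes with the most similar profile. Nid2, Col4a3, Col4a4, Col4a6, Itga9, Dag1, Lox and the cell type markers were named outside this rule after their values were seen. Some list genes are not reported here. Same-numbered arrays of NC+CCl4 and shLFAR1+CCl4 correlated in their deviations from the group means at 0.13, 0.23 and 0.19, against -0.23 to 0.09 for other numbers. This pairing comes from the data, not the labels, so a block in these groups only was added as an alternative for every comparison. In the other 5 pairs of groups the check was not passed.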

Additional observations from a re-analysis of the deposited data

How the results depend on the processing

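Of the 10 genes, the count called in NC+CCl4 against NC was 7, between 5 and 7 without 1 array, and 4 with the methods' t-test after Benjamini-Hochberg. In shLFAR1+CCl4 against NC+CCl4 it was 1, between 0 and 6 without 1 array, 5 with array weights, 4 with a replicate block in the CCl4 groups only (added after the data were seen), and 0 with the 2 groups alone or the methods' t-test after Benjamini-Hochberg. In shLFAR1+CCl4 against shLFAR1 it was 1, and 0 or 1 without 1 array. It was 0 with the 2 groups alone, with the methods' t-test after Benjamini-Hochberg, and with genes above the median level only, which left 7 of the 10 and dropped Col4a5. For the interaction it was 0, between 0 and 4 without 1 array, 3 with array weights and 1 with the block in the CCl4 groups only, which kept the counts of 7, 1 and 0 in NC+CCl4 against NC, shLFAR1+CCl4 against shLFAR1 and shLFAR1 against NC. In shLFAR1 against NC it was 0 under every alternative run. The replicate block in all groups changed none of these counts, which stayed at 7, 1, 1, 0 and 0. Why the counts moved was not tested, apart from the smaller sets of arrays or genes. The direction turned only for small log2 changes that were not called. With the mean of probe sets, Hspg2 was at 0.29 in NC+CCl4 against NC, 0.016 in shLFAR1 against NC and -0.17 in the interaction, and Lama4 at 0.014 in shLFAR1+CCl4 against shLFAR1. With quantile normalization Hspg2 was at 0.037 in shLFAR1+CCl4 against NC+CCl4. With array weights it was at -0.027 in shLFAR1+CCl4 against shLFAR1 and -0.017 in the interaction. Without 1 array, Hspg2 ran from -0.11 to 0.040 in NC+CCl4 against NC, from -0.063 to 0.085 in shLFAR1+CCl4 against NC+CCl4, from -0.046 to 0.054 in shLFAR1+CCl4 against shLFAR1, from -0.073 to 0.023 in shLFAR1 against NC and from -0.035 to 0.11 in the interaction. Lama4 ran from -0.0076 to 0.21 in NC+CCl4 against NC, from -0.086 to 0.13 in shLFAR1+CCl4 against shLFAR1, from -0.16 to 0.050 in shLFAR1 against NC and from -0.21 to 0.018 in the interaction. Lamb2 ran from -0.14 to 0.12 in shLFAR1+CCl4 against shLFAR1. In shLFAR1 against NC, Col4a5 ran from -0.22 to 0.45, Lamb1 from -0.26 to 0.091 and Nid1 from -0.19 to 0.081.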
